A study of Mus musculus with 19 samples.

Results

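Prnp, Prss12, Retreg1 and Ahnak are 4 of the 8251 genes that the array annotation names with 1 symbol per probe set. They were chosen by their values at 2 stages: near the floor of the scale in trunk neural crest cells at E9.5 (embryonic day 9.5) and high in sciatic nerve cells at E12. Each has 1 probe set (100606_at for Prnp, 93953_at for Prss12, 95518_at for Retreg1 and 160255_at for Ahnak), so no second probe set checks any of them. Because E9.5 and E12 chose them, every difference that uses either stage is a description here, without a test, and tests are given only between E14, E16, E18 and P0.

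The study followed mouse glia from neural crest stem cell to early Schwann cell. All groups carry the same transgene, in which a glial promoter, on in crest stem cells and afterwards in glia, drives green fluorescent protein, and in every group the green cells were taken by flow cytometry. The groups are E9.5 trunk with 3 arrays, and then sciatic nerve with 3 arrays at E12, another 3 at E14, 4 at E16, 3 at E18 and 3 on the day of birth, P0, so body region and age change together between the earliest groups. The reporter defines the cells in each sort, no wild-type or other genotype group enters any comparison here, and the labels do not tell if the replicate arrays stand for different animals or litters. P-values therefore measure only the spread between these samples, which may be technical.

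The values are expression indices, linear intensities that estimate a transcript's level from all probes of a probe set. Per array the median index was 174 to 207, and 22.6 to 27.2% of probe sets lay at or under the floor of 68.5, the 25th percentile of all values. The ratio of 3' to 5' signal of the GAPDH control, which grows as amplified RNA gets shorter, was 2.33 to 9.12. It differed by stage, at 2.33 to 3.41 at E9.5, 3.18 to 4.53 at E12 and 3.84 to 9.12 from E14 on. Each sample carries a lot number, and E16 replicates 1 and 2 and P0 replicate 1, all of lot 1, had lower summed signal of glial markers (16141 to 17979) than the other 13 nerve arrays (19070.2 to 29129). The lot-1 arrays of E12, E14 and E18 are among those 13.

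Prnp encodes the cellular prion protein, a glycoprotein held at the cell surface by a GPI lipid anchor. In peripheral nerve it is known for its role in myelin upkeep, where a fragment shed from axons signals to Schwann cells through a G protein-coupled receptor. Prss12 encodes neurotrypsin, a secreted serine protease whose known substrate is the matrix proteoglycan agrin. Retreg1, also called Fam134b, encodes a membrane-shaping receptor that delivers sheets of endoplasmic reticulum to autophagy and is linked to an inherited sensory and autonomic neuropathy. Ahnak encodes a very large scaffold protein that binds annexin 2 and S100a10 under the plasma membrane and, in Schwann cells, associates with dystroglycan.

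The proximal promoters are shown because the 4 genes share their low level at E9.5 and their high level at E12. Below are the 250 bases before the annotated start of each gene, from RefSeq on mouse build GRCm38.p6, all on the plus strand and written 5′ to 3′. Capitals mark matches, on either strand, to 8 short motifs. The site of AP-1 factors was searched as TGANTCA and the cyclic AMP response element as TGACGTCA. The GC box was searched as GGGCGG, the CCAAT box by those letters and the TATA box as TATAAA. The cores of SOX factors were ACAAAG together with its variant ACAATG, and the site of TEAD factors was GGAATG.
Prnp, chr2:131909678-131909927: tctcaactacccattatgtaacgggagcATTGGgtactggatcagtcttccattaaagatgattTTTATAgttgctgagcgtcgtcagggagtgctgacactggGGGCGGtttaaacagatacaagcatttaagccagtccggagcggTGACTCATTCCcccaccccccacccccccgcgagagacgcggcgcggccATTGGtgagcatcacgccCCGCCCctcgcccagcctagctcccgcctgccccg
Ahnak, chr19:8989034-8989283: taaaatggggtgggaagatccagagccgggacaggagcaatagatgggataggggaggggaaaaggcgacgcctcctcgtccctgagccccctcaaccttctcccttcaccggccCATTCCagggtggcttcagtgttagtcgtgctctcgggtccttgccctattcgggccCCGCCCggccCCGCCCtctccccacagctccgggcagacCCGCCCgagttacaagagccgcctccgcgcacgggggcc
Retreg1, chr15:25843048-25843297: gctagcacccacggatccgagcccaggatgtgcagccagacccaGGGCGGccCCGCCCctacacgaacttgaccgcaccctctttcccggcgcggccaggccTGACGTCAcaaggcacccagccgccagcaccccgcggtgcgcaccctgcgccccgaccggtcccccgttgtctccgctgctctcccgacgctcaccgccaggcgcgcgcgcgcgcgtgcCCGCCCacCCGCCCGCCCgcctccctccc
Prss12, chr3:123446663-123446912: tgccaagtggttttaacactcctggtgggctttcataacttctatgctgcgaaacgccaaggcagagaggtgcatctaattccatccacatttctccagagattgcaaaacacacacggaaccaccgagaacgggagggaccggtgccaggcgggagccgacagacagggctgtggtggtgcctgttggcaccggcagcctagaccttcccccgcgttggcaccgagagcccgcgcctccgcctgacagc
Retreg1 has 4 annotated starts and the most upstream one is shown. The probe set does not tell which start was used.

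The 4 windows share no motif of the 8. The Prnp window held an AP-1 match 102 bases before the start, which overlaps a TEAD match at 97, with 2 GC boxes, 2 CCAAT matches and 1 TATAAA match. The Ahnak window held 3 GC boxes and a TEAD match at 135, and the Retreg1 window held a CRE at 148 and 5 GC boxes. The window of the next Retreg1 start downstream, not shown, held 1 SOX core match at 137 and 1 GC box, at 55.6% GC. Those of the remaining Retreg1 starts held none of the 8 motifs. The Prss12 window held none of the 8 motifs, which says only that these letters are not in this window. Among 32851 such windows of mouse genes, 6.75% held TGANTCA, 1.55% TGACGTCA, 32.7% GGGCGG, 33.8% CCAAT, 12.4% TATAAA and 12.6% GGAATG, while ACAAAG and ACAATG, in none of the 4, were in 16.5% and 10.7%. The windows differed in base composition, at 58.8% GC for Prnp, 59.6% for Prss12, 66.4% for Ahnak and 76.4% for Retreg1, against a median of 52.4% over all windows. A match is a description of letters, not a binding site.

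The values that chose the members are as follows. Prnp was at 72.8, 79.4 and 53.0 on the E9.5 arrays and at 2920.1, 2631 and 2316 on the E12 arrays. Prss12 was at 82.1, 54.7 and 78.8 at E9.5 and at 3333, 3408 and 3450.0 at E12. For each of these genes 1 E9.5 array lay at the floor, so both genes were at the lower edge of what the array scale resolves. Retreg1 was above the floor on every E9.5 array, at 180.5, 83.1 and 122, and at 2323, 1854 and 2938 at E12. Ahnak was at 0, 43.0 and 0 at E9.5, all under the floor, and at 1577, 1983 and 1068 at E12. For each gene every E12 array was above every E9.5 array. The E12 arrays were closest together for Prss12, with a mean of 3397 ± 59.2 (SD, n = 3), or 1.74% of the mean, and farther apart for Prnp (2622 ± 302), Retreg1 (2372 ± 544) and Ahnak (1543 ± 459).

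On the log2 scale with values under the floor set to it, the fitted E12 minus E9.5 difference was 5.48 (SE 0.29) for Prss12, 5.15 (SE 0.16) for Prnp, 4.45 (SE 0.26) for Ahnak and 4.25 (SE 0.26) for Retreg1. For Prss12, Prnp and Ahnak these are lower bounds, since E9.5 arrays lay at the floor. Of 10414 probe sets tested, 14.1% passed an adjusted p under 0.05 in this comparison (limma, Benjamini-Hochberg adjustment), with 9.7% of all higher at E12, and by fitted difference the members held places 1, 2, 7 and 11. The choice of members fixes those places. The members are no cut by rank, since other probe sets stood between them, among these Klf4 at place 5 and Col3a1 at place 8. Npr3, a natriuretic peptide clearance receptor, stood just above Retreg1 at place 10 (21.5-fold). Wwtr1, a Hippo pathway coactivator, stood just below it at place 12 (18.2-fold).

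**Figure D1:**
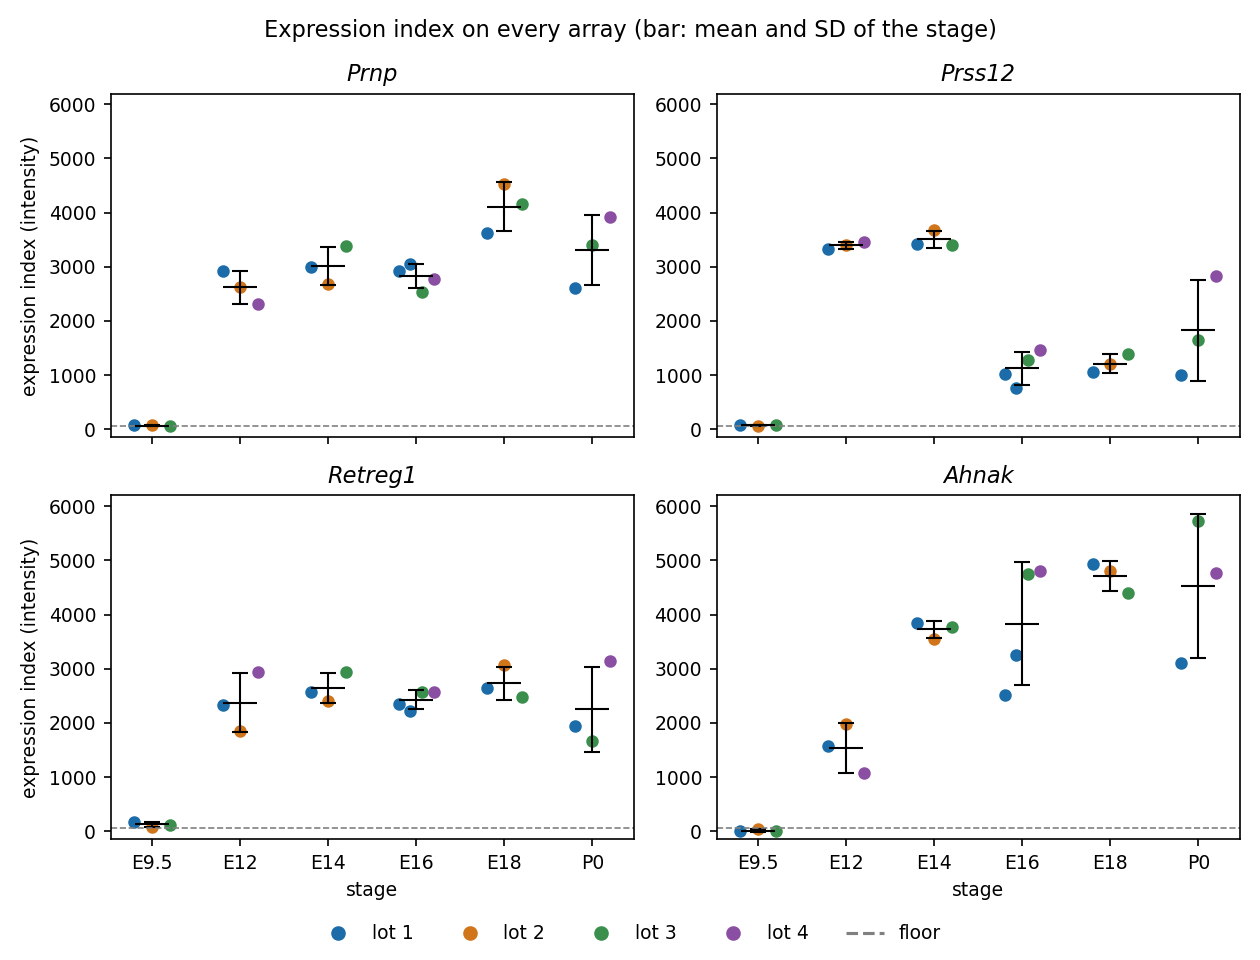
Expression index (intensity, linear axis) of the 4 genes on each of the 19 arrays, by stage. Points are arrays coloured by lot, black bars are the stage mean and SD, and the dashed line is the floor of 68.5. The genes part after E12, with Prss12 lower from E16 on and Ahnak higher from E14 on.

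Prss12 was the member whose level in the nerve did not last. It was at 3426, 3682 and 3410.1 on the E14 arrays, close to its E12 values, and at 1023, 762, 1281 and 1459.9 on the E16 arrays. No E16 array came near any E14 array. The mean was 3506 ± 153 at E14 and 1131 ± 305 at E16 (SD, n = 3 and 4). Prss12 fell 3.19-fold by the fit, a log2 change of -1.67 (SE 0.27, 95% interval -2.24 to -1.11, adjusted p = 0.0018 by limma). In that comparison 1.69% of all probe sets passed the test, with 1.1% of all lower at E16, and the median change of all was -0.04. The fall was -1.96 within lot 1 and -1.41 within lot 3, and -1.36 without the lot-1 arrays of E16. It passed in all 17 alternatives computed for it, with an adjusted p of 1.0e-05 to 0.013.

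After E16 no interval of Prss12 passed the test. E18 gave 1049.8, 1209.8 and 1384, inside the range of the E16 arrays, and P0 gave 996, 1652 and 2836. The P0 arrays of 1 stage thus ran from the low E16 level to near the E14 level, with an SD of 933 on a mean of 1828, or 51.0% of it. The E18 minus E16 difference was 0.14 (95% interval -0.43 to 0.70, adjusted p = 0.94) and the P0 minus E18 difference 0.47 (-0.14 to 1.08, adjusted p = 0.56), neither past the threshold, with 0.0768% and 0.125% of all probe sets called. At P0 Prss12 was 2.10-fold lower than at E14 (log2 change -1.07, SE 0.29, adjusted p = 0.033), and every P0 array was under every E14 array. That comparison called 6.37% of probe sets, and the call is not a firm one. Over 16 alternatives the adjusted p ran from 0.00096 to 0.25. It was not past the threshold in 8 of them, among these the fits without E14 replicate 1 (adjusted p = 0.095), 2 (0.083) or 3 (0.093), without P0 replicate 1 (0.14, log2 change -0.69) and without P0 replicate 3 (0.095). Across E14 to P0 together, a moderated F-test gave an adjusted p of 0.0039 for Prss12, with 5.08% of probe sets called.

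Prnp passed no test in the nerve and was highest at E18. It was at 2997, 2675 and 3384 at E14 and at 2931, 3048, 2538 and 2781 at E16, which overlap each other and the E12 arrays. E18 gave 3628, 4535 and 4166, all above every E16 array, and P0 gave 2618, 3394 and 3916, on both sides of the E18 minimum. The E18 mean, 4109.7 ± 456 (SD, n = 3), was the highest of the 6 stage means of Prnp. The E18 minus E16 difference of 0.54 (SE 0.15, 95% interval 0.22 to 0.86), 1.45-fold, had an unadjusted p of 0.0024 and an adjusted p of 0.42 over all probe sets (limma), so it did not pass. It was 0.28 within lot 1 and 0.72 within lot 3. With array weights, which count noisier arrays less, it was 0.59 with an adjusted p of 0.0082. The weighted fit called 1153 of all 10414 probe sets in this comparison, against 8 in the fit reported. Over 17 alternatives the adjusted p ran from 0.0082 to 0.93.

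The other Prnp intervals had smaller differences. E16 minus E14 was -0.09 (95% interval -0.41 to 0.22, adjusted p = 0.862), P0 minus E18 was -0.33 (-0.67 to 0.01, adjusted p = 0.448) and P0 minus E14 was 0.12 (-0.22 to 0.46, adjusted p = 0.768). From E12, which chose the gene, to E14 the fitted difference was 0.20, and to P0 it was 0.32. The F-test over E14 to P0 gave an adjusted p of 0.154, and of 0.0015 with array weights. With array weights that F-test called 3184 of all 10414 probe sets, against 529 in the fit reported.

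Retreg1 passed no test in the nerve either. It was at 2578, 2402 and 2940.2 at E14, at 2353, 2229.7, 2581 and 2565 at E16 and at 2637, 3070.3 and 2485 at E18. All 3 stages overlap. At P0 it was at 1953, 1670.1 and 3146, so 2 arrays lay under all E14, E16 and E18 arrays and 1 lay above them. No interval passed the test: the differences were -0.12 for E16 minus E14 (95% interval -0.63 to 0.40, adjusted p = 0.902), 0.16 for E18 minus E16 (-0.35 to 0.68, 0.907), -0.32 for P0 minus E18 (-0.87 to 0.23, 0.667) and -0.28 for P0 minus E14 (-0.83 to 0.27, 0.65). The F-test gave an adjusted p of 0.816, and no alternative gave Retreg1 a call in any of these 5 tests.

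Ahnak was still low at E12 beside its own later level. Its E14 arrays, at 3848, 3558 and 3776, were all above its E12 arrays of 1577, 1983 and 1068. The E14 minus E12 difference was 1.32 (SE 0.26), 2.49-fold, which is a description since E12 chose the gene. It was 1.29 within lot 1 and 0.84 within lot 2. From E14 on the arrays spread without a called change. E16 gave 2513, 3248, 4759 and 4807, E18 gave 4929, 4805 and 4406, and P0 gave 3100.3, 5721 and 4766. The 2 low E16 arrays and the low P0 array are those of lot 1. The lot-1 arrays of E14 and E18, at 3848 and 4929, were in contrast the highest of their stages. The lots gave opposite signs: E16 minus E14 was -0.43 within lot 1 and 0.33 within lot 3, P0 minus E14 was -0.31 and 0.60, and P0 minus E18 was -0.67 and 0.38. Pooled over lots these differences were -0.01 (95% interval -0.53 to 0.51, adjusted p = 1), 0.24 (-0.32 to 0.79, 0.714) and -0.10 (-0.66 to 0.46, 0.936), and E18 minus E16 was 0.35 (-0.17 to 0.87, 0.735). The F-test over E14 to P0 gave an adjusted p of 0.721 and no alternative called Ahnak.

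Differences from E12 to P0 ran both ways. From E12 to P0 the fitted difference was 1.55 for Ahnak and -1.02 for Prss12, in both cases with no overlap of arrays, and 0.32 for Prnp and -0.10 for Retreg1, both with overlap. To set the fall of Prss12 against the other members on the same arrays, the mean log2 index of Prnp, Retreg1 and Ahnak was subtracted from that of Prss12. This was 0.03 to 0.38 on the E14 arrays and -1.88 to -1.15 on the E16 arrays, a mean difference of -1.60. It uses the same arrays as the fall of Prss12 itself and is a description. Across the 16 nerve arrays Pearson's r, a description over arrays that share stages and lots, was 0.59 for Prnp and Ahnak, 0.32 for Prnp and Retreg1, 0.18 for Prss12 and Retreg1, 0.06 for Retreg1 and Ahnak, -0.23 for Prnp and Prss12 and -0.40 for Prss12 and Ahnak. Over the 13 arrays from E14 to P0, which did not choose the genes, r was 0.44, 0.42, 0.33, 0.13, 0.0049 and 0.14 for the same pairs in the same order. The values below 0 thus came with the E12 arrays included.

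**Figure D2:**
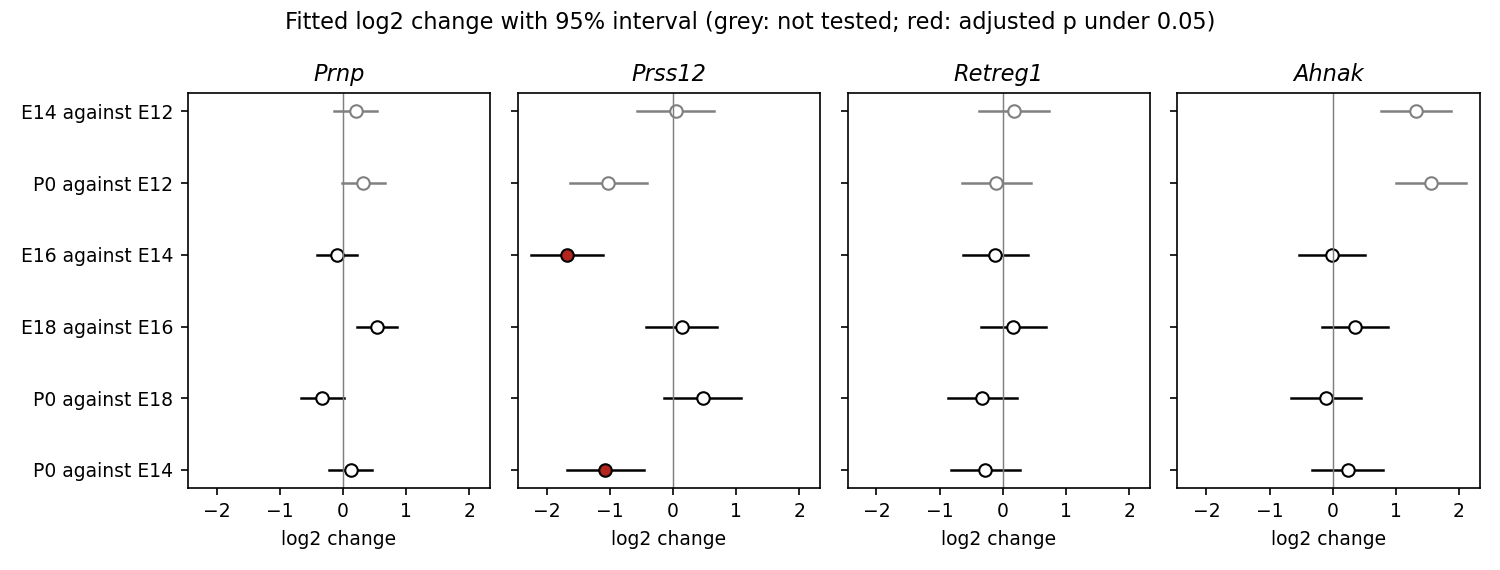
Fitted log2 change of each gene between stages with its 95% interval as a line, in grey where the choice of genes allows no test and filled red where the adjusted p was under 0.05. Prss12 passed in E16 against E14 (-1.67) and P0 against E14 (-1.07), and no other member passed.

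Markers of cell types were summed per array to show what else moved with the members. In bulk samples of this kind fewer cells of a type and less RNA per cell cannot be told apart. Glial markers, 12 of 15 on the array, summed to 5996 to 7266 at E9.5 and 19070.2 to 23370.3 at E12, and the glial transcription factor Sox10 had means of 1381 and 2263 there. S100b, a later glial marker, was at the floor at both stages. Fibroblast and perineurial markers (14 of 15) went from 2307 to 2472 at E9.5 to 12037 to 14515 at E12. Of their 12 tested genes 4 rose, all of them for matrix proteins (Col1a2, Col3a1, Postn and Fbln2), and 1 fell, the transcription factor gene Twist1, from 158 ± 49.9 to 48.5 ± 22.2 (SD, n = 3 and 3). The receptor gene Pdgfrb and the transcription factor gene Prrx1 were at the floor on all arrays of both stages. Pdgfra, Twist2 and Meox1 of that list were above it on all of them, without a call. Their means were 132, 278 and 271 at E9.5 and 122, 300 and 149 at E12. Macrophage markers (15 of 15) summed to 1712 to 2062 at E9.5 and 2963 to 5927 at E12, and erythroid markers (7 of 11) to 1850.4 to 2078 and 3059 to 10264. Genes listed for the response to cell dissociation (19 of 19) summed to 9267 to 10986 at E9.5 and 22136 to 43731 at E12, with 11 of 19 rising. In that list the mean of Hsph1 went down, from 2557 to 2005. That of Egr2 went from 435 at E9.5 to 826 at E12 and 4357 at E18. The sum is that of the list, and a dissociation response itself was not measured. Of the tested genes, 6 of 12 glial, 6 of 13 macrophage and 3 of 7 erythroid ones were also called higher, with 0 lower. Endothelium had 0 higher and 1 lower of 12, and skeletal muscle 0 called of 10. Over all probe sets 9.7% were called higher and 14.1% either way. Sums for endothelium (1971 to 2328, then 2116 to 2690) and skeletal muscle (2176 to 3112, then 2179 to 2720) overlapped between the stages. Neuronal sums were lower at E12 (2154 to 2409) than at E9.5 (2794 to 2824), but 0 of 9 tested neuronal genes were called. Tubb3, in that sum, went from a mean of 1162 to 722, while Stmn2 went from 436 to 484. The part of these cell types and of the stress response in the members' values was not tested.

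Several marker genes were lower at E16 than at E14 together with Prss12. Of 12 glial markers tested 3 fell, genes of early glia: Fabp7, a fatty acid binding protein, from 4572 ± 283 to 1020 ± 382 (SD, n = 3 and 4), Gfra3, a receptor subunit, from 2514 ± 256 to 863 ± 128, and Gap43, a growth-associated protein, from 407 ± 69.9 to 114 ± 39.1. Mbp, a myelin gene of that list, rose. Sox10, Erbb3, Foxd3 and Ednrb, also glial markers of that list, had no call. Their means were 1699, 3728, 319 and 5253 at E14 and 1433, 3591, 226 and 4095 at E16. Over all probe sets 1.1% were called lower at E16 and 1.69% either way. Macrophage sums were 2558 to 3839.9 at E14 and 1851 to 2186 at E16, with no overlap, and 1 of 13 tested genes, the lysosomal protease gene Ctss, fell. Erythroid sums were 2964 to 6373 at E14 and 2238 to 3186 at E16, and 1 of 7 tested genes, the embryonic globin gene Hbb-y, fell. Glial sums at E16 were 16885 and 17979 on the lot-1 arrays and 25270.2 and 26311 on the others, and Prss12 was at 1281 and 1459.9 on the latter 2. Fibroblast sums were 18845 to 26505 at E14 and 26795 to 33970.3 at E16. The GAPDH ratio was 5.10 to 6.23 at E14 and 3.84 to 9.12 at E16, and with it as a covariate the Prss12 change was -1.70. The part of these cell types and of RNA quality in the fall of Prss12 was not tested.

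For each member the 5 genes with the most similar course over the 16 nerve arrays were found by Pearson's r on the log2 scale. Nearest to Prss12 were Mtor, the kinase of nutrient signalling (r = 0.92), Fhod3, an actin-assembling formin (0.92), Phldb2, a protein of the cell cortex (0.91), Dpysl4, a member of the collapsin response mediator family (0.90), and Hacd3 (0.89). Nearest to Ahnak were S100a9, a calcium-binding protein of myeloid cells (0.92), Tlcd4 (0.92), Lamb1, a laminin chain (0.92), Lpar1, a lysophosphatidic acid receptor (0.91), and Atf3, a stress-induced transcription factor (0.91). S100a9 and Atf3 stand in that set although they are known for myeloid cells and for stress. At E12 the means of S100a9, Tlcd4 and Lpar1 were 60.3, 29.0 and 47.1, under the floor of 68.5. The r values include these E12 arrays, which chose the members and on which Ahnak was low as well.

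Nearest to Retreg1 were Tmco1, a calcium channel of the endoplasmic reticulum (0.89), Emc2, a subunit of a complex that inserts membrane proteins there (0.88), Tmem59 (0.87), Arf4, a small GTPase of vesicle traffic (0.86), and Vapa, a tether protein of the endoplasmic reticulum (0.86). Nearest to Prnp were Eif1b, a translation initiation factor (0.86), Spryd7 (0.83), Col3a1, a fibrillar collagen (0.82), Serinc3, a membrane protein (0.79), and Vtn, vitronectin (0.78). The value for Col3a1 is that of 1 probe set. Another Col3a1 probe set, the one in the fibroblast sums, had higher means at every stage. Its r with Prnp over the 16 nerve arrays was 0.48. These sets of nearest genes also depend on the measure. By Spearman's rank correlation they shared 2 of 5 genes for Prnp, 0 for Prss12, 1 for Retreg1 and 1 for Ahnak with the sets given, and over all 19 arrays 1, 0, 0 and 1. With the E9.5 arrays included, Prnp and Retreg1 had r = 0.98, against 0.32 in the nerve alone.

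Genes that work with each member were read from 6 lists. The lists were made with earlier results of these data known, so their counts are not independent evidence. Of 85 list genes tested 20 rose between E9.5 and E12, beside 9.7% of all probe sets called higher and 14.1% called either way. None fell by the adjusted test, 29 had an unadjusted p under 0.05, and the median change was 0.27 against 0.01 over all probe sets. With array weights 31 were called, beside 3041 of all 10414 probe sets. The share of all probe sets with an unadjusted p under 0.05 is not given here.

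Among cleavage and surface partners of prion protein 4 of 16 tested genes rose, with a median of 0.13. App, the amyloid precursor protein, had a mean of 1250 ± 276 at E9.5 and 5416 ± 828 at E12 (SD, n = 3 and 3) and rose 4.38-fold by the fit (adjusted p = 4.9e-07 by limma, SE of the log2 change 0.18). Ncam1, an adhesion molecule that binds prion protein, rose 3.70-fold, Fyn, a kinase downstream of both, 2.92-fold, and Lamc1, a laminin chain, 2.39-fold. All 4 calls held in all 15 alternatives. Prnd and Sprn, the prion-like genes, and the receptor gene Adgrg6 have no probe set of 1 symbol here. Of 13 genes that build or attach the GPI anchor 1 rose, Dpm3, a subunit of the enzyme that makes the mannose donor (4.27-fold, adjusted p = 0.0045), with a list median of 0.23. A share of 1 in 13 is no more than that over all probe sets (9.7% higher).

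Of 11 genes of the agrin pathway and of neuronal serine proteases, the setting of Prss12, 3 rose, with a median of 0.40. Dag1, the dystroglycan gene, rose 2.58-fold, from 662 ± 105 to 1704 ± 205 (SD, n = 3 and 3). Serpini1, the protease inhibitor neuroserpin, rose at least 2.00-fold from 3 E9.5 arrays at the floor. Furin, a proprotein protease, rose 3.28-fold with an adjusted p of 0.037, but was called in only 6 of 15 alternatives (adjusted p = 0.00091 to 0.15). From E14 to E16, when Prss12 fell, limma called 0 of the 11, with 1 at an unadjusted p under 0.05 and 1 called with array weights. Array weights called 912 of all 10414 probe sets in that interval. Agrn, the gene of the protease's substrate agrin and named here after its values were seen, had a log2 difference of -0.35 in that interval (SE 0.33, adjusted p = 0.731).

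Of 11 genes of endoplasmic reticulum turnover and shape around Retreg1, 3 rose, with a median of 0.61. Reep5, a reticulum-curving protein, rose 2.17-fold, from 757 ± 117 to 1634 ± 78.1, in all 15 alternatives. Reep1, its relative linked to spastic paraplegia, rose 2.25-fold (13 of 15 alternatives) and Rtn1, a reticulon, 2.37-fold (7 of 15). Retreg2, the paralog of Retreg1, had a difference of 0.10, which did not pass. Of 19 autophagy genes 3 rose, with a median of 0.27. Sqstm1, the cargo adaptor p62, rose at least 10.8-fold, from 75.1 ± 26.0 with 2 arrays at the floor to 883 ± 259 (SD, n = 3 and 3). Map1lc3b, an LC3 protein that Retreg1 binds, rose 2.52-fold, and Gabarapl1, of the same family, 1.92-fold (9 of 15 alternatives).

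AHNAK's partners and genes of membrane repair had the most calls, 6 of 15 tested, with a median of 0.23. Anxa2, which binds AHNAK, rose at least 14-fold, from 81.6 ± 88.4 with 2 arrays at the floor to 1332 ± 63.3. S100a10, its partner in that complex, had means of 114 ± 43.7 and 913 ± 116 (SD, n = 3 and 3), and its fitted rise was 8.34-fold (SE of the log2 change 0.33). Anxa6 rose 5.60-fold and Anxa5 2.60-fold, and these 4 calls held in all 15 alternatives. The other two, Capn2 and Sgce, were called in 8 and 11 of 15.

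**Figure D3:**
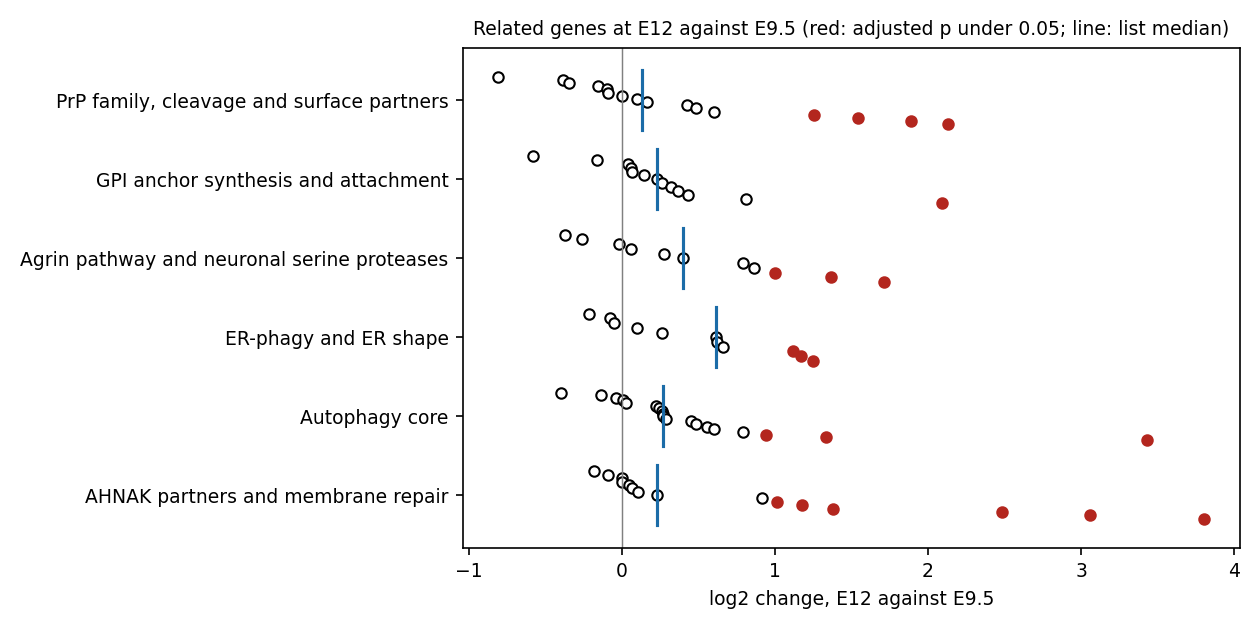
Fitted log2 change from E9.5 to E12 of every tested gene (points) in the 6 lists, 1 row a list, with the list median as a blue line and called genes in red. Called genes lie to the right of 0 in every list, and the medians run from 0.13 to 0.61.

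Later in the nerve the lists passed the test in few genes. Limma called 2 of 85 between E14 and E16, beside 1.69% of all, and 4 of 85 between E14 and P0, beside 6.37%. Between E14 and E16 Anxa1, an annexin of membrane repair, rose at least 11.1-fold, from 99.6 ± 44.9 to 1156 ± 397 (SD, n = 3 and 4), and Rtn1 fell 2.69-fold with an adjusted p of 0.038, a call that 8 of 17 alternatives gave. Between E16 and E18 and between E18 and P0 limma called 0 of the 85, while 9 and 10 had an unadjusted p under 0.05 and array weights called 17 and 7. Over all 10414 probe sets array weights called 1153 and 865 in these intervals. Between E14 and P0 Anxa1 (at least 13.3-fold), Reep1 (2.62-fold) and Reep5 (1.62-fold) rose and Piga, an enzyme of GPI anchor synthesis, fell 2.21-fold. Anxa1 was called in 16 of 16 alternatives, Reep1 in 14, Reep5 in 10 and Piga in 5.

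The genes beside each member on its chromosome were read as well, the 2 nearest measured genes on each side in RefSeq order, with at most 10 annotated genes between. Of these 16 neighbours 1 passed the test between E9.5 and E12, beside 14.1% of all probe sets. It was Tmem230, a vesicle membrane protein gene on the Prnp side, with a log2 change of 0.74 (SE 0.23, adjusted p = 0.041), called in 7 of 15 alternatives. The 16 differences ran from -0.75, for Mta2 beside Ahnak, to 1.13, for Myo10 beside Retreg1 (adjusted p = 0.073), with a median of -0.07. All were far from the 4.25 to 5.48 of the members, whose own values were the reason for their choice. Fabp2, beside Prss12, lay at the floor on 15 of the 19 arrays. Asrgl1, Scgb1a1 and Eef1g, beside Ahnak, did so on 14, 11 and 6, so the floor limits the differences of these neighbours.

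**Figure D4:**
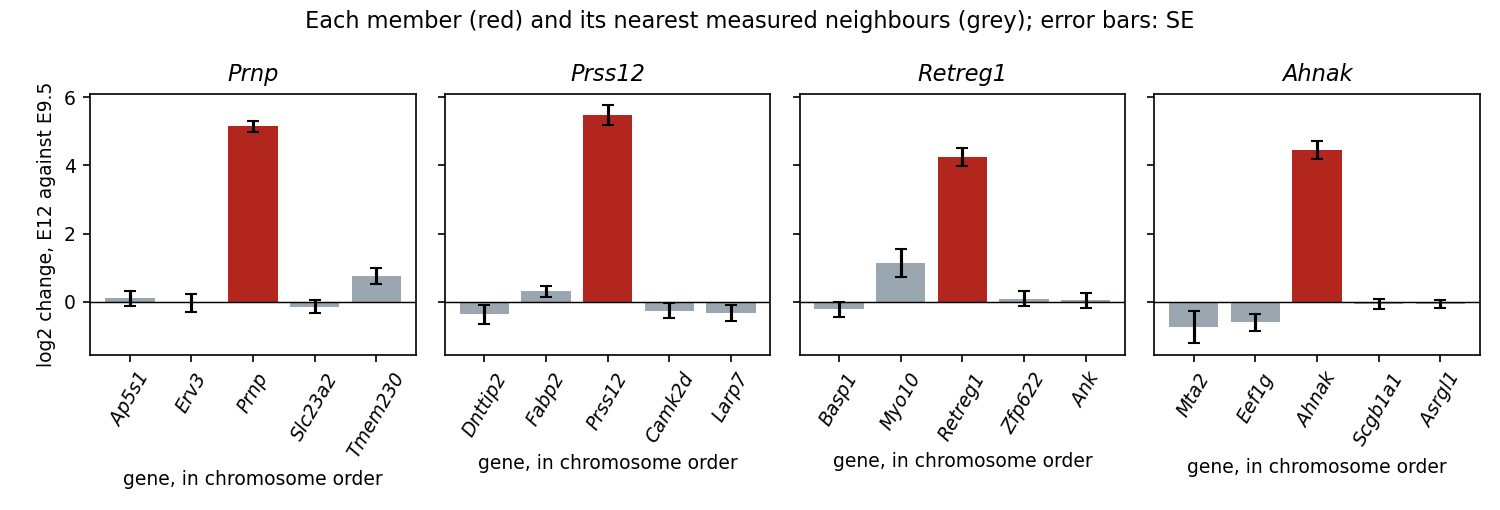
Fitted log2 change from E9.5 to E12 of each member and of the nearest 2 measured genes on either side of it, as bars in chromosome order with the SE of the fit. The neighbours lie between -0.75 and 1.13, and the members between 4.25 and 5.48.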

How the data were processed

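Cells sorted from the 6 stages gave 19 Affymetrix arrays. The deposited values are expression indices on a linear intensity scale: per the labels, the authors normalized MAS 5.0 files with the smoothing spline of dChip and computed a model-based index with probe sensitivities from 18 arrays. The version used is not stated, and the labels of E9.5 replicates 2 and 3 hold no protocol.

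Of 12488 probe sets, 66 controls were left out and genes were named by the array annotation. Values under 68.5 were raised to that floor before taking log2, and the 10414 probe sets above it on 3 or more arrays were fitted together (limma 3.58.1, R 4.3.3, lmFit and eBayes, a mean per stage, 13 residual degrees of freedom). Adjusted p-values are Benjamini-Hochberg values over all of them, two-sided, with a threshold of 0.05. The script was tested on simulated data. A fold whose lower stage had an array at the floor is written "at least".

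The members and gene lists were chosen with earlier results of these data known. Beside the members, the text names the 5 genes most like each, up to 4 called genes a list and 2 measured neighbours a side. Agrn, Capn2, Sgce and the marker genes were named after their values were seen. Alternatives changed the floor, filter, normalization, weights, samples, covariate or block. The number of arrays limits the precision.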

Additional observations from a re-analysis of the deposited data

How the results depend on the processing

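Of the members' calls, Prss12 in E16 against E14 and in the F-test over E14 to P0 passed in all 17 and all 23 alternatives, and Prss12 in P0 against E14 in 8 of 16. It was not past the threshold with no filter (adjusted p = 0.059), with only the compared groups in the fit (0.25) and with lot-1 arrays of the E16 and P0 groups left out (0.058), beside the arrays left out above. No called change reversed its sign. The number of probe sets called moved more. Array weights gave 3041 in E12 against E9.5 (1469 in the fit reported), 912 in E16 against E14 (176), 1153 in E18 against E16 (8), 865 in P0 against E18 (13), 1388 in P0 against E14 (663) and 3184 in the F-test (529). With only the compared groups the counts were 116 in E16 against E14, 2 in P0 against E18, 207 in P0 against E14 and 275 in the F-test. The GAPDH covariate gave 272 in E16 against E14, quantile normalization 54 in P0 against E18, no filter 7 there, the absence of lot-1 arrays 7 there, and the floor at the 40th percentile 3 in E18 against E16. Leaving out 1 array gave 958 (without E9.5 replicate 2) to 1269 in E12 against E9.5, 107 (without E14 replicate 3) to 179 in E16 against E14, 4 to 11 in E18 against E16, 2 to 712 in P0 against E18, 353 (without E14 replicate 1) to 1436 in P0 against E14 and 326 to 1235 in the F-test, the highest 3 without P0 replicate 4. Quantile normalization gave 920 higher and 758 lower in E12 against E9.5 (1010 and 459), and leaving out the lot-1 arrays 127 and 87 in E16 against E14 (61 and 115). With the GAPDH covariate E12 against E9.5 had 1472 higher and 357 lower. The cause of these moves was not tested. Replicate numbers were checked for pairing. Deviations of 38 same-number pairs correlated at a mean of 0.022 and those of 112 other pairs at -0.0077. Of 19 arrays 6 correlated best with their own number. The replicate number is also the lot number on all arrays but E16 replicate 2. By lot the means were 0.042 for 39 same-lot pairs and -0.015 for 111 others. With 3 or 4 arrays a stage, these values cannot exclude that the numbers pair the samples. A replicate block gave 5 calls in E18 against E16, 40 in P0 against E18 and 245 in E16 against E14, where Prss12 was at -1.81. Genes near the floor at E9.5 have only a bound there, and the Prnp difference at E18 passed only with array weights.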

Other observations

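Of the 15 largest fitted increases between E9.5 and E12, 2 belong to probe sets without a gene name, 97487_at (at least 24.5-fold, from a mean of 34.5 to 1679, with 3 E9.5 arrays at the floor) and 104735_at (24.2-fold, from 219 to 5196). They stand between Prnp and Klf4, at places 3 and 4. Later in the nerve 97487_at was at 5986 to 6497 on the 3 arrays of lot 1 at E16 and P0, and at 447 to 2175 on the other 13 nerve arrays. Ahr, a ligand-activated transcription factor, stood at place 14, from a mean of 32.4, with all E9.5 arrays at the floor, to 1225, and Apoe, a lipid carrier, at place 15, from 0 on average to 1341. These were named after their values were seen, by the same difference that chose the members, and carry no test here.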
